A study of Mus musculus with 6 samples.

Results

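The genes described here make cholesterol and fatty acids, or sense and export sterols, in C1498, a mouse leukemia cell line from a C57BL/6J background that the labels call acute myeloid leukemia. They were followed on 6 Affymetrix Mouse Gene 1.0 ST arrays, 3 of cells kept for 48 h with the PARP-1 inhibitor PJ34 at 20 μM and 3 of cells given PBS, the vehicle control, for the same time. A list of 40 gene symbols set the members, and a gene was taken up where the array's gene table assigned a probe set to that symbol and to no other gene. This held for 38 of the 40, with 42 probe sets, and for a gene with several the one with the highest mean over the 6 arrays was used. Acat2 and Nr1h2 had no such probe set and were not analysed here. Each value is a log2 expression value, so that a difference of 1 is a 2-fold change, and every difference below is PJ34 minus PBS.

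Cells build cholesterol from acetyl-CoA through mevalonate, isoprenoid diphosphates, squalene and lanosterol. When sterols in the endoplasmic reticulum run low, the carrier Scap takes the SREBP transcription factors to the Golgi, where they are cut and released to the nucleus. SREBP-2 acts mainly on cholesterol genes and SREBP-1c mainly on fatty acid genes, while the Insig proteins hold Scap back when sterols are plentiful. LXR receptors, which bind oxidised sterols, drive the opposite program of sterol export through Abca1 and Abcg1.

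The array medians lay between 4.41 and 4.46 over the 35556 probe sets, and correlations between arrays ran from 0.992 to 0.995. The label of the line was checked against marker genes. Of 10 myeloid markers, 2 lay above the median level of all probe sets, Ptprc, which all leukocytes carry, and, barely, Cebpa (mean of 4.86 over the 6 arrays). The defining genes Mpo, Elane, Csf1r, Itgam and Spi1 lay below it, while 4 of 6 T cell markers lay above it, Cd3e (mean of 10.38 with PBS, SD 0.049), Cd3g (11.10, SD 0.029), Cd28 and, barely, Cd3d, and Cd4 and Cd8a did not. With PJ34, Cd28 (difference 1.44) and Cd4 (0.62) among the T cell markers and Gzma (0.90) among 5 NK cell markers were higher (adjusted p under 0.05 from limma). The summed log2 values of the T cell markers were 41.6 to 42.0 in PBS and 43.8 to 43.9 in PJ34 arrays, and those of the NK cell markers 15.7 to 16.1 and 16.9 to 17.1. These 3 genes carried most of both shifts. The other T cell markers had differences of -0.10 to 0.18 and the other NK cell markers of 0.03 to 0.06, and none of them passed. Gzma lay below the median level and passed in 2 of the 6 fits without 1 array. The part of these changes in the results below was not tested. In a bulk sample, more cells with a transcript and more of it per cell cannot be told apart.

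Genes of cholesterol synthesis were higher in the PJ34 cells, and genes of fatty acid synthesis and of LXR did not pass the test. Of the 38 members, 10 rose and none fell at an adjusted p under 0.05 from limma's moderated test, adjusted over all 23412 probe sets tested. The members that rose made up 26.3%, beside 1.72% of all probe sets tested that were higher and 1.35% that were lower. All members but Scd1 and Abca1 lay above the median level of all probe sets. When only probe sets at or above that level were fitted, 7.02% were higher, and 16 members were. By step in the fit of all 23412, 3 of 6 mevalonate genes, 5 of 11 genes from squalene on and 2 of 6 regulators rose. None of 11 fatty acid genes and none of 4 LXR genes did. At an unadjusted p under 0.05 from limma, 3 of the fatty acid genes (8.95% of all probe sets were higher at this level and 7.74% lower) and none of the LXR genes were higher, and none of either was lower. Over all members, 19 were higher and 1, Srebf1, was lower at that level. Whether the groups differ from each other was not tested. The median difference was 0.33 for the mevalonate genes, 0.32 for the later sterol genes, 0.13 for the regulators, 0.11 for the fatty acid genes and 0.02 for the LXR genes, against 0.00 over all probe sets tested. In 25 members, or 65.8%, all 3 PJ34 arrays lay above all 3 PBS arrays, as they did in 12.6% of all probe sets. Srebf1 was the only member with all PJ34 arrays below all PBS arrays (10.9% of all probe sets). With 3 arrays in each group, the smallest p that an exact permutation test of 1 gene allows is 0.1 (two-sided), so the calls rest on the limma fit. They also move with the setting. With an intensity trend and robust eBayes 17 members passed, all higher (4.31% of all probe sets), among them Fasn, Elovl5 and Scd2 of the fatty acid genes and none of the LXR genes. With all 35556 probe sets tested 4 passed (0.315%), and by the methods' t-test after adjustment 2, Mvk and Nsdhl (0.333%).

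**Figure D1:**
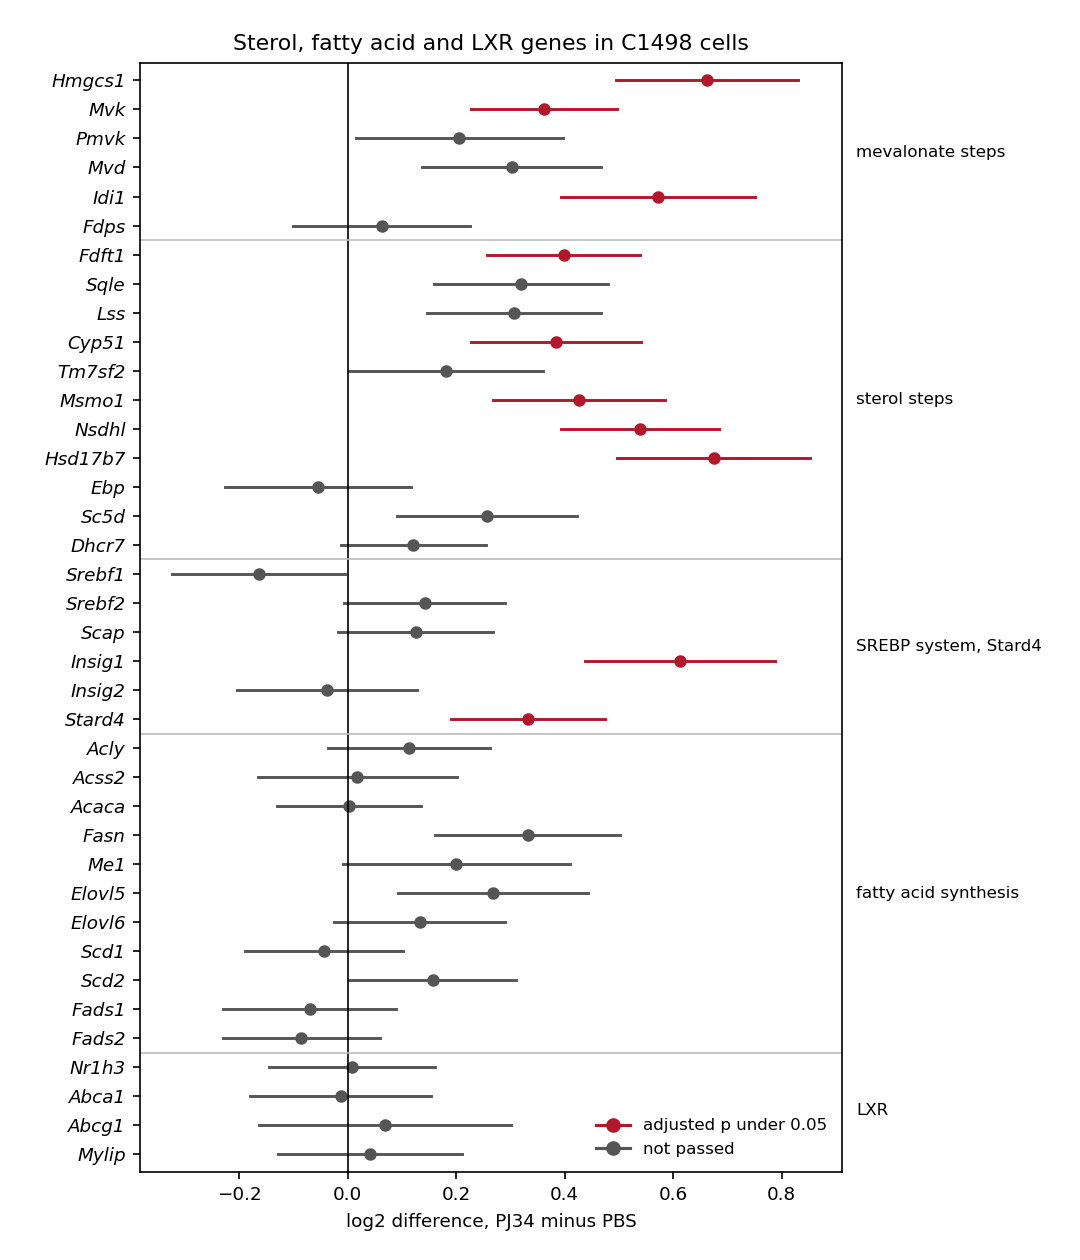
Log2 difference, PJ34 minus PBS (horizontal axis), of the 38 members in the order of the pathway (vertical axis). Points are differences, bars are 95% confidence intervals from limma, and red marks the 10 members with an adjusted p under 0.05, which all lie between Hmgcs1 and Stard4, with none in the fatty acid or LXR groups.

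Of the 10 members that rose, 5 kept an adjusted p under 0.05 whichever single array was removed, namely Hmgcs1, Idi1, Nsdhl, Hsd17b7 and Insig1. SREBPs bind sterol regulatory elements near the start of their target genes, often beside boxes of the factor NF-Y. Binding was not measured here. The bases before the starts of these 5 genes are shown, as are those of Insig2, the relative of Insig1 that did not pass. They come from RefSeq (GRCm38.p6) and run 5′ to 3′ on the strand of the gene up to the outermost annotated start, so that they leave out 1 CCAAT of Hsd17b7 and 2 of Insig2 that lie nearer to the start in the 250 bases searched. Capitals mark CCAAT, the NF-Y box (ATTGG on the other strand), TCACNCCAC, a core of the sterol element where N is any base, and the E-box CACGTG. Hmgcs1 is shown at chr13:119690101-119690350 (plus strand), Idi1 at chr13:8885356-8885605 (plus), Nsdhl at chrX:72918271-72918520 (plus), Hsd17b7 at chr1:169969243-169969455 (minus), Insig1 at chr5:28071162-28071411 (plus) and Insig2 at chr1:121332663-121332839 (minus).
Hmgcs1: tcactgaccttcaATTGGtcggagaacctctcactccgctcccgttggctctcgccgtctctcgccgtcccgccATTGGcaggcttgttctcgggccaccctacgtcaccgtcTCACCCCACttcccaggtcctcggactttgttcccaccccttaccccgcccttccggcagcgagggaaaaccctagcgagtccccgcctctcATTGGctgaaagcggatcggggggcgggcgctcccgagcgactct
Idi1: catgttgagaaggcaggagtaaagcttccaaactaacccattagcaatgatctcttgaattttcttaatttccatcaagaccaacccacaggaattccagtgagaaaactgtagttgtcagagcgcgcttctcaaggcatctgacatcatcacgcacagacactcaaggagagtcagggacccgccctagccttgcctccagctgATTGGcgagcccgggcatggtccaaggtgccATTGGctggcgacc
Nsdhl: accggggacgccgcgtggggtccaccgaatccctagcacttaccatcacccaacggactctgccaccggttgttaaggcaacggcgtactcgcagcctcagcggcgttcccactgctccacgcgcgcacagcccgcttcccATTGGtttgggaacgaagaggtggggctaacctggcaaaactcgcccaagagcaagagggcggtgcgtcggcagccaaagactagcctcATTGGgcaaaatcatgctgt
Hsd17b7: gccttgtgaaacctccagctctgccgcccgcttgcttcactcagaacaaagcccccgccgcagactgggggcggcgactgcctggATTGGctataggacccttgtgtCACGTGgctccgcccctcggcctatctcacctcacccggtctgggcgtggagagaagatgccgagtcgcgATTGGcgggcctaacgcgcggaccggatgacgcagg
Insig1: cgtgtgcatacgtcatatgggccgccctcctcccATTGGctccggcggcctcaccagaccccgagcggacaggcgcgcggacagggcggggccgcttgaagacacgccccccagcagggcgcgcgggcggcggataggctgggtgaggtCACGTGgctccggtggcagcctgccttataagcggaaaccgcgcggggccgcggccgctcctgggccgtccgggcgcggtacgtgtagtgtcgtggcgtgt
Insig2: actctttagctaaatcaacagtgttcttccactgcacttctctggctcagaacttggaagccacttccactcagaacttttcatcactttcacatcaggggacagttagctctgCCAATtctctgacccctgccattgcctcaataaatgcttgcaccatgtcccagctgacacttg

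The sterol element core stood in the Hmgcs1 sequence, beginning 137 bases before the start, and in no other promoter of a member. The search covered both strands of the 250 bases before each listed start, and no match overlapped one of another motif in the members. RefSeq promoters were found for 32 of the 40 members (42 starts) and cover 32851 starts in all, of which 1.05% hold this core. Fdps, Fdft1, Sqle, Stard4, Scd1, Scd2, Fads1 and Abcg1 were not matched. CCAAT stood before 14 of 18 starts of mevalonate and sterol genes (77.8%), 5 of 10 of regulators (50%), 4 of 9 of fatty acid genes (44.4%), 1 of 5 of LXR genes (20%) and 33.8% of all starts. Matches at several places were found in 50% of the starts of mevalonate and sterol genes and in 10.1% of all starts. Counted by gene, with a match before at least 1 start, CCAAT was found in all 8 members that rose and had a promoter, in 15 of 22 that did not pass (68.2%) and in 37.5% of all genes. The GC box GGGCGG was also frequent, in 83.3% of the starts of mevalonate and sterol genes against 32.7% of all. By gene, the GC box was likewise found in all 8 members that rose and had a promoter. It was found in 16 of 22 that did not pass (72.7%) and in 35.4% of all genes. CACGTG stood before 7 of the 42 member starts (16.7%), against 6.02% of all starts. These belonged to Hsd17b7 and Insig1, which rose, and to Dhcr7, Sc5d, Scap, Elovl5 and Abca1, which did not pass. By gene this was 25% of the members that rose and had a promoter and 22.7% of those that did not pass. The LXR element DR4, a spaced direct repeat, was in none of the member promoters and in 0.0152% of all. These are matches of letters in a fixed window and were not tested.

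**Figure D2:**
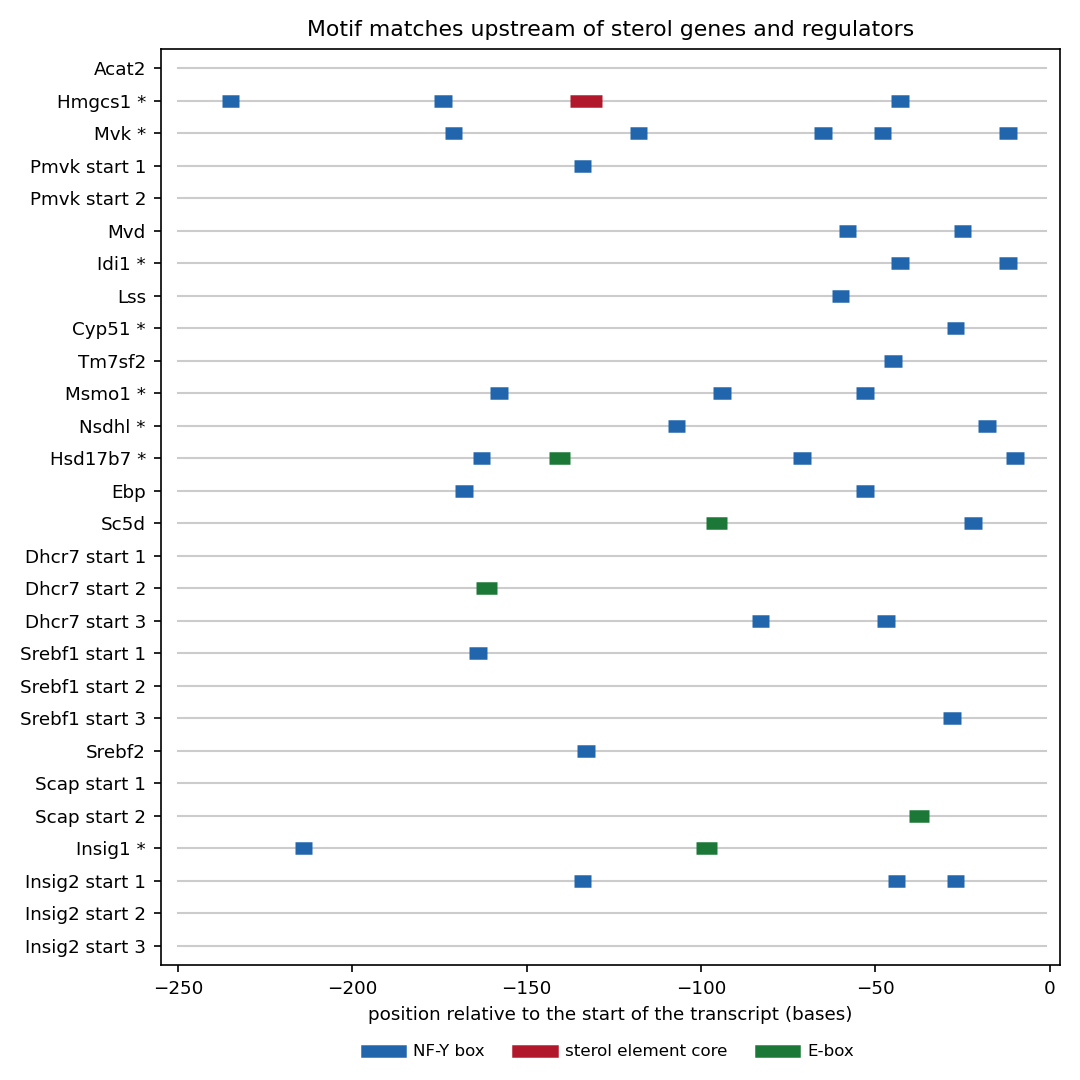
Positions of motif matches in the 250 bases before each RefSeq start (horizontal axis, bases relative to the start) for members of the mevalonate, sterol and regulator groups that have one (vertical axis; an asterisk marks a member that rose). Blue is the NF-Y box, red the sterol element core, which only Hmgcs1 holds, and green the E-box.

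Early in the pathway, Hmgcs1, which makes HMG-CoA, changed most. Its log2 values were 10.39, 10.55 and 10.49 on the PBS arrays and 11.11, 11.23 and 11.08 on the PJ34 arrays. The groups lay far apart compared with their SDs of 0.082 and 0.083, and the level was 1.58-fold higher (95% confidence interval 1.41 to 1.78, adjusted p = 0.00379 from limma). Idi1, which isomerises isopentenyl diphosphate, read 9.27, 9.25 and 9.22 with PBS and 9.68, 9.94 and 9.85 with PJ34. It was 1.49-fold higher (1.31 to 1.68, adjusted p = 0.00869 from limma), and PJ34 replicate 1 was the lowest of the PJ34 arrays. A second probe set of Idi1 gave a difference of 0.56 beside 0.57 for the one used. It passed with all 6 arrays (adjusted p = 0.011 from limma). Of the 6 fits without 1 array it passed in 4, and failed without PBS replicate 2 or 3. Which copy or part of the gene each probe set reads is not given in the sources used here. Mvk, mevalonate kinase, had a tight spread at 6.63, 6.63 and 6.59 with PBS and 6.97, 6.95 and 7.003 with PJ34. It was 1.29-fold higher (1.17 to 1.41, adjusted p = 0.0167 from limma).

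The other mevalonate genes did not pass. Mvd, which decarboxylates mevalonate diphosphate, had values of 8.19, 8.34 and 8.36 with PBS and 8.66, 8.54 and 8.59 with PJ34, with no overlap (difference 0.30, SE 0.072, adjusted p = 0.0682 from limma). For Pmvk, phosphomevalonate kinase, the gap between the groups was narrow, from 8.54 on the highest PBS array to 8.57 on the lowest PJ34 array (difference 0.21, adjusted p = 0.259). Fdps, which makes farnesyl diphosphate, overlapped between the groups at 9.27, 9.30 and 9.38 with PBS and 9.45, 9.27 and 9.41 with PJ34. Its fold was 1.04, with an interval of 0.933 to 1.17 that leaves out the rise seen in Hmgcs1.

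From squalene on, 5 genes rose. Hsd17b7, whose enzyme reduces the 3-keto group of sterol intermediates, had values of 7.38, 7.60 and 7.61 with PBS and 8.24, 8.19 and 8.18 with PJ34. This was the widest difference of all members, at 1.60-fold (1.41 to 1.81, adjusted p = 0.0049 from limma), and most of the spread lay in PBS replicate 1. Nsdhl, which acts with it in removing the methyl groups at C4, read 8.93, 8.94 and 8.93 with PBS and 9.42, 9.55 and 9.44 with PJ34. Its PBS arrays agreed to an SD of 0.00295, and it was 1.45-fold higher (1.31 to 1.61, adjusted p = 0.00533 from limma). Msmo1, the C4 methyl sterol oxidase of the same complex, went from 10.63, 10.56 and 10.59 to 10.92, 11.11 and 11.04 (1.34-fold, adjusted p = 0.0167 from limma). All 3 enzymes of C4 demethylation thus rose. Cyp51, the lanosterol 14-alpha demethylase, read 9.75, 9.73 and 9.63 with PBS and 10.03, 10.16 and 10.06 with PJ34, and was 1.30-fold higher (adjusted p = 0.0233 from limma). Fdft1, squalene synthase, was at 9.47, 9.41 and 9.41 with PBS and at 9.77, 9.85 and 9.87 with PJ34 (1.32-fold, adjusted p = 0.0139 from limma). Its second probe set gave a like difference, 0.41 beside 0.40.

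The remaining 6 later genes did not pass, and they fell into 3 kinds. Sqle, squalene epoxidase, and Lss, lanosterol synthase, came close to the threshold. Sqle had values of 9.52, 9.63 and 9.52 with PBS and 9.89, 9.94 and 9.78 with PJ34 (difference 0.32, SE 0.070, adjusted p = 0.052 from limma). For Lss they were 8.77, 8.92 and 8.93 and then 9.16, 9.23 and 9.15 (difference 0.31, SE 0.070, adjusted p = 0.0583 from limma). Both were separated between the groups on every array. Sc5d, the lathosterol desaturase (difference 0.26, adjusted p = 0.108), Tm7sf2, a sterol C14 reductase (0.18, adjusted p = 0.295), and Dhcr7, which makes the last step to cholesterol in one branch (0.12, adjusted p = 0.355), were separated as well, by less. Ebp, the sterol isomerase, was the exception. It read 7.65, 7.75 and 7.85 with PBS and 7.75, 7.72 and 7.62 with PJ34, and its fold of 0.963 had an interval of 0.855 to 1.08.

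**Figure D3:**
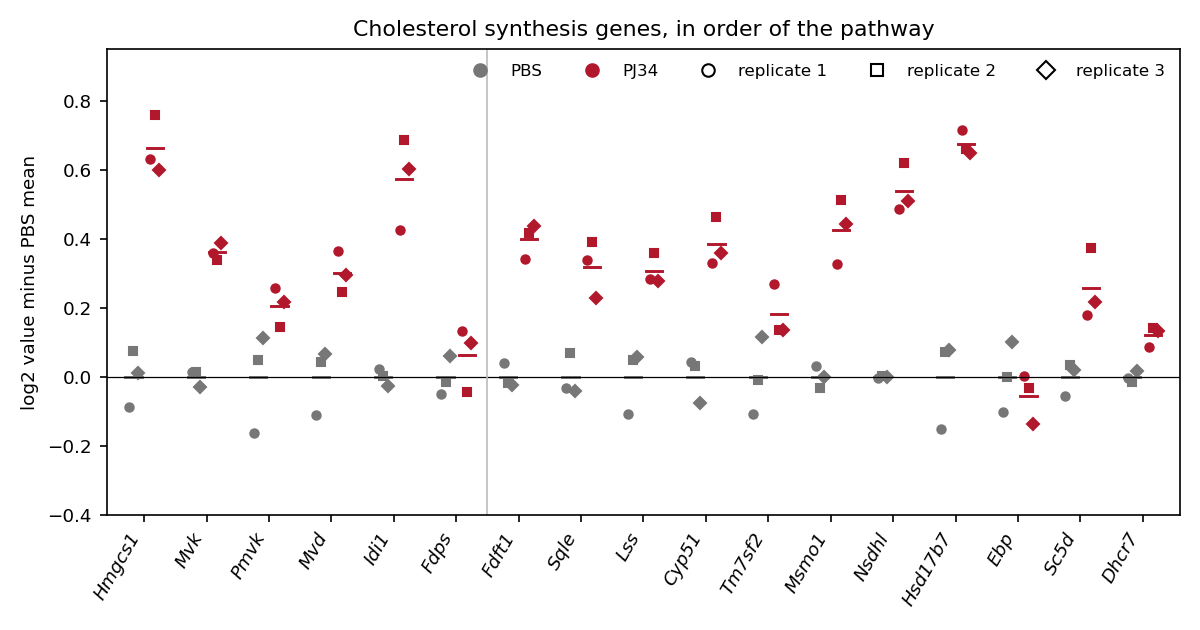
Log2 value of each array minus the mean of the 3 PBS arrays (vertical axis) for the 17 measured genes of cholesterol synthesis in pathway order (horizontal axis). Grey is PBS and red PJ34, the symbol gives the replicate and short lines the group means. The groups are apart in 15 genes (88.2%, beside 12.6% of all probe sets tested), of which 8 passed the test. They overlap in Fdps and Ebp.

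Among the regulators, Insig1 and Stard4 rose. Insig1, which holds Scap in the endoplasmic reticulum and is itself an SREBP target, had values of 10.11, 10.22 and 10.30 with PBS and 10.81, 10.92 and 10.74 with PJ34. It was 1.53-fold higher (1.35 to 1.73, adjusted p = 0.00666 from limma). Insig2, its relative, overlapped, with 6.70, 6.87 and 6.79 against 6.77, 6.81 and 6.67 (fold 0.974, interval 0.869 to 1.09, adjusted p = 0.86 from limma). The change of Insig1 relative to Insig2 was 0.65 (PBS SD 0.082, PJ34 SD 0.028), again at the smallest exact permutation p of 0.1. It mostly repeats the separation of Insig1 itself. Stard4, a carrier of cholesterol inside the cell, read 8.48, 8.57 and 8.57 with PBS and 8.89, 8.88 and 8.85 with PJ34 (1.26-fold, 1.14 to 1.39, adjusted p = 0.0282 from limma).

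The genes of the SREBPs themselves showed small differences that did not pass. Srebf2, which encodes SREBP-2, was at 9.21, 9.32 and 9.35 with PBS and 9.45, 9.41 and 9.44 with PJ34 (difference 0.14, SE 0.065, adjusted p = 0.322 from limma). Srebf1, which encodes SREBP-1a and SREBP-1c, was at 7.82, 7.94 and 7.86 with PBS and 7.79, 7.69 and 7.64 with PJ34 (difference -0.16, SE 0.070, adjusted p = 0.283 from limma). The groups did not overlap in either gene, in opposite directions. Srebf2 minus Srebf1 differed by 0.31 between the groups. Since both genes were apart in opposite directions, this difference could not overlap. Its exact permutation p of 0.1 (0.1 adjusted over the 5 pairs of members compared in this way) was thus fixed and adds no support. The array does not tell the transcripts of SREBP-1a and SREBP-1c apart in the values used here, and the cutting of SREBP proteins is not measured by RNA. Scap had a difference of 0.13 (SE 0.063, adjusted p = 0.368).

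None of the 11 genes of fatty acid synthesis passed. Fasn, fatty acid synthase, came nearest, with values of 8.96, 9.12 and 9.16 with PBS and 9.48, 9.39 and 9.36 with PJ34 (1.26-fold, 1.12 to 1.42, adjusted p = 0.0561 from limma). Elovl5, an elongase of polyunsaturated fatty acids, was next at 9.78, 9.86 and 9.92 against 10.01, 10.22 and 10.13 (1.20-fold, 1.07 to 1.36, adjusted p = 0.111). Every PJ34 array exceeded every PBS array in both genes, and also in Scd2, Elovl6, Acly and Me1. This makes 6 of the 11 fatty acid genes (54.5%, beside 12.6% of all probe sets tested). For Acly the gap was narrow, from 9.61 on PBS replicate 3 to 9.62 on PJ34 replicate 3. Scd2, a desaturase that makes monounsaturated fatty acids, had a difference of 0.16 (adjusted p = 0.287), Elovl6, which lengthens saturated chains, 0.13, and Acly, which makes cytosolic acetyl-CoA from citrate, 0.11. Acaca, the carboxylase that makes malonyl-CoA, barely moved, from 8.84, 8.88 and 8.84 to 8.85, 8.87 and 8.84, and its fold of 1.00 had an interval of 0.913 to 1.10. A second probe set of Acaca gave 0.12 and did not pass. Acss2, which makes acetyl-CoA from acetate, likewise overlapped (difference 0.02). Fads1 and Fads2, the desaturases of polyunsaturated fatty acids, had differences of -0.07 and -0.09. Me1, malic enzyme, a source of NADPH, differed by 0.20, mostly through PJ34 replicate 2 at 5.43, against 5.07 and 5.18 on the other PJ34 arrays and 5.01 to 5.05 with PBS. A second probe set of Me1 gave 0.16, overlapped between the groups and did not pass. Scd1 was read at 2.99 to 3.15 on all arrays, below the median level of 4.42, so that background makes up an unknown share of its value.

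The LXR genes overlapped between the groups in every case. Nr1h3, the receptor LXR-alpha, was at 4.82, 4.79 and 4.72 with PBS and 4.77, 4.72 and 4.86 with PJ34 (fold 1.01, interval 0.905 to 1.12). Abca1, a pump that exports cholesterol, was read at 3.30, 3.31 and 3.43 and at 3.44, 3.32 and 3.25, also below the median level. Abcg1, another sterol exporter, varied most, at 4.65, 4.42 and 4.50 against 4.70, 4.39 and 4.69 (fold 1.05, interval 0.892 to 1.23). Mylip, an LXR target whose ubiquitin ligase removes lipoprotein receptors, had values of 5.95, 5.98 and 6.09 against 6.14, 6.05 and 5.95 (fold 1.03, interval 0.915 to 1.16). Their adjusted p ranged from 0.809 for Abcg1 to 0.973 for Nr1h3. At the low level of Abca1, background makes up an unknown share of the value, so its interval does not bound the change in its transcript. Abcg1 (mean of 4.56 over the 6 arrays) and Nr1h3 (4.78) lay only a little above the median level of 4.42, so the same limit may hold for them.

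**Figure D4:**
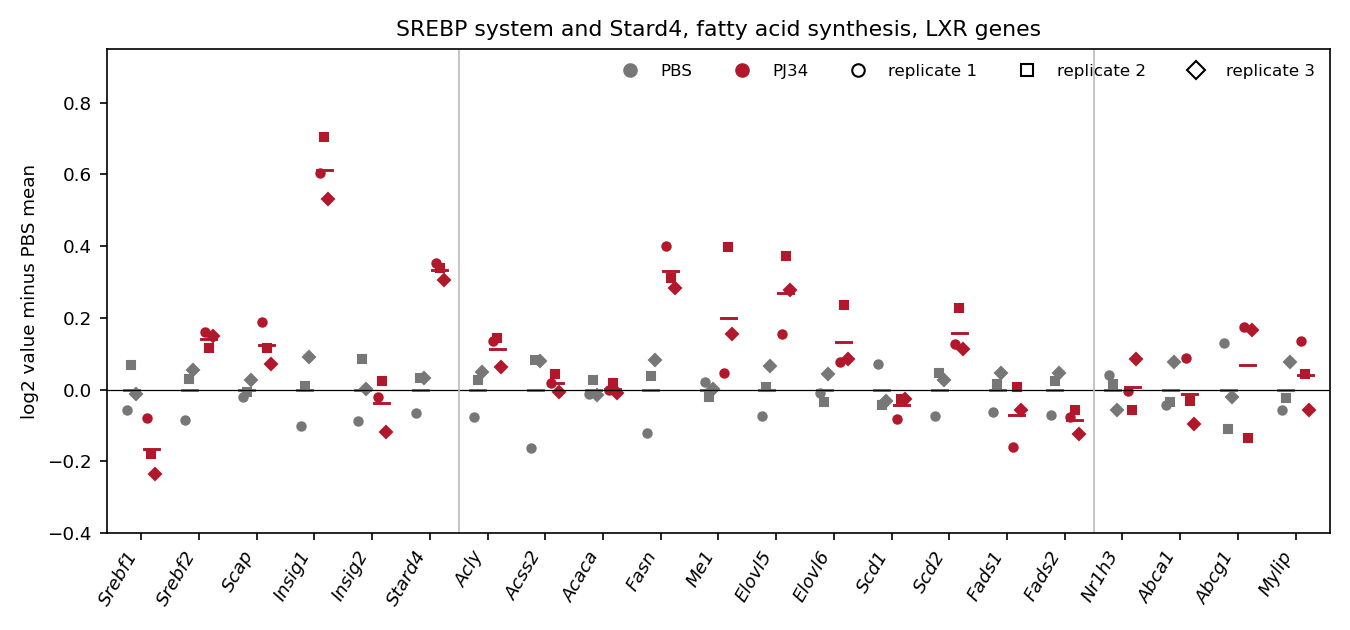
Log2 value of each array minus the PBS mean (vertical axis) for the regulators, the fatty acid genes and the LXR genes (horizontal axis, groups parted by grey lines), drawn like the plot of the cholesterol genes. Insig1 and Stard4 stand apart from the other regulators, and the LXR genes show overlap of red and grey.

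All 10 members that rose lay above the highest PBS array on each of the 3 PJ34 arrays (12.6% of all probe sets tested did). They were picked by their differences on these same arrays, so this adds no separate support. Their median distance from the PBS mean was 0.39 on PJ34 replicate 1, 0.57 on replicate 2 and 0.48 on replicate 3. Replicate 2 was the highest PJ34 array in 6 of the 10, and replicate 1 the lowest in 5. Over the 17 genes of cholesterol synthesis the medians were closer, at 0.33, 0.37 and 0.29. Over the fatty acid genes they were 0.05, 0.14 and 0.06, and over the LXR genes 0.11, -0.04 and 0.01, so that the latter had no common direction. Left out in turn, single arrays ended calls of the other 5 members. Cyp51 and Stard4 did not pass in any of these 6 fits (adjusted p of 0.0511 to 0.106 and 0.0538 to 0.104 from limma). Mvk passed in 1 of them, without PJ34 replicate 2, Msmo1 in 2, without PJ34 replicate 1 or 2, and Fdft1 in 3, without PBS replicate 1 or PJ34 replicate 1 or 2. With arrays centred on their medians, Stard4 did not pass and the other 9 did.

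**Figure D5:**
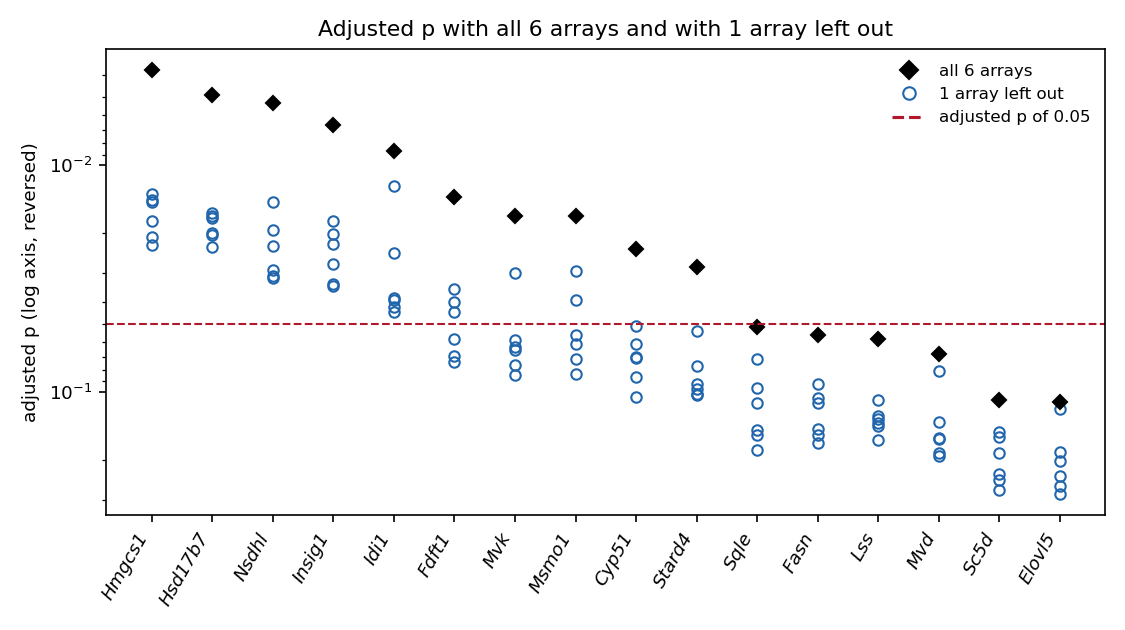
Adjusted p from limma (vertical axis, logarithmic and reversed) of the 16 members with an unadjusted p under 0.01, in order of p (horizontal axis). Black diamonds are fits of all 6 arrays and open circles fits without 1 array; the circles of Hmgcs1, Hsd17b7, Nsdhl, Insig1 and Idi1 all lie on the passing side of the dashed line at 0.05.

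Of the other genes of these pathways that were measured, 1 of SREBP processing rose and 1 of LXR fell. Over all probe sets tested, 1.72% were higher and 1.35% lower. Of 10 measured genes of isoprenoid branches and further sterol steps none passed, and the lowest p belonged to Coq2, which acts in ubiquinone synthesis (difference -0.28, adjusted p = 0.087 from limma). None of the 15 genes of sterol uptake, lysosomal release and esterification passed either, where Lipa, the lysosomal acid lipase, had a difference of -0.24 (adjusted p = 0.0937), and 13 of the 15 differences were below 0, while 51.0% of all probe sets tested had one above 0. By the unadjusted p under 0.05 from limma, 1 of the first list was higher and 2 lower, and none of the second higher and 2 lower. At this level 8.95% of all probe sets tested were higher and 7.74% lower. With the intensity trend 2 of the first list, Acat1 and Coq2, and 1 of the second, Lipa, passed as lower (3.93% of all probe sets tested). By the methods' t-test none of either list passed. Of 13 genes of SREBP processing and its cofactors, Nfyc rose. It encodes a subunit of NF-Y and read 8.60, 8.52 and 8.68 with PBS and 8.91, 9.005 and 8.94 with PJ34 (1.27-fold, adjusted p = 0.035 from limma). A second probe set of Nfyc gave 0.22 and did not pass (adjusted p = 0.32), and the call was lost in each fit without 1 array. The other NF-Y subunits, Nfya (difference -0.10, adjusted p = 0.53 from limma) and Nfyb (-0.16, adjusted p = 0.371), did not pass and had differences of the opposite sign. Of 28 other genes of fatty acid and glycerolipid synthesis none passed, with 3 higher and 2 lower by unadjusted p, and the lowest p was that of the elongase Elovl4 (difference -0.41, adjusted p = 0.0587), which lies below the median level. With the trend Elovl4 and Acsl5 passed as lower, and by the methods' t-test none of the 28. Of 15 partners and targets of LXR, Smpdl3a, a phosphodiesterase induced by LXR, fell. Its values were 8.20, 8.26 and 8.25 with PBS and 7.65, 7.96 and 7.81 with PJ34, a fold of 0.744 (0.65 to 0.85, adjusted p = 0.0352 from limma), and it passed in 1 of the 6 fits, without PJ34 replicate 2.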

How the data were processed

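RNA of C1498 cells was measured on 6 Affymetrix Mouse Gene 1.0 ST arrays, and samples were grouped by the labels. The authors used RMA in Affymetrix Expression Console 1.3.1, per the submitters' processing notes, and deposited log2 expression values, after background correction and quantile normalization, with 1 value per probe set. They were used as deposited; quantile normalization removes any change shared by all genes. The values carry no detection calls, and with arrays their number limits the precision. The paper speaks of independent experiments without further detail, so p-values may measure technical spread. The genome build behind the probe sets is not given in the sources used here.

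The gene table lists 23410 of 35556 probe sets, 21789 with 1 gene. These and 2 probe sets that only the study names, 23412 in all, were fitted in limma 3.58.1 (R 4.3.3, lmFit and eBayes, PJ34 minus PBS, Benjamini-Hochberg). The fit was tested on simulated data. Alternatives were median centring, an intensity trend with robust eBayes, leaving out dim probe sets, testing all probe sets, the methods' t-test, a replicate block, leaving out each array and the dimmer probe set of a gene. All 38 measured members are named, and of the other lists the genes that passed or else the one with the lowest p. The members and lists were chosen with earlier results of these data known. Symbols of all 136 listed genes measured matched RefSeq GRCm38.p6 by gene number.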

Additional observations from a re-analysis of the deposited data

How the results depend on the processing

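None of the 14 settings turned the direction of a member that passed, and no member was lower at an adjusted p under 0.05 in any of them; 32 of 38 kept their sign throughout, and Insig2, Acss2, Acaca, Nr1h3, Abca1 and Mylip, which never passed, did not. The number of members higher was 10. With an intensity trend and robust eBayes it was 17 (4.31% of all probe sets tested were higher), with 8 of the later sterol genes and 3 fatty acid genes. Without dim probe sets it was 16 (7.02%), with 8 and 2. With all probe sets of the file tested it was 4 (0.315%), of which 1 mevalonate gene, 2 later sterol genes and 1 regulator. By the methods' t-test after adjustment it was 2 (0.333%), Mvk and Nsdhl, so 1 mevalonate gene, 1 later sterol gene and 0 regulators. Centring the arrays left 1 regulator (9 members in all, 1.26%). With the replicate block it was 5 (0.948%), of which 2 later sterol genes and 1 regulator. The replicate numbers do not pair the samples by their deviations from the group means (correlations of -0.01, 0.13 and -0.01), and not every array correlated best with its own number. Leaving out 1 array gave 5 to 8 members (0.632% to 1.2%), 2 to 3 of them mevalonate genes, 2 to 4 later sterol genes and 1 a regulator in every such fit. The probe set with the lowest mean of a gene changed no call of a member, and among the other genes it ended that of Nfyc. Nsdhl passed in every setting. Hmgcs1, Hsd17b7 and Insig1 failed only the methods' t-test (adjusted p of 0.062, 0.0717 and 0.0744). Idi1 failed it (0.0864) and also the fit of all probe sets. The smallest change called in the main fit was 1.26-fold, and with the intensity trend Scd2 was called at 1.11-fold. For Scd1 and Abca1 the signal lies near the dim end.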

Other observations

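Fatty acid oxidation, the route that breaks fatty acids down, held 1 change among 17 genes measured (5.88%, beside 1.72% of all probe sets tested that were higher). Acadl, the long-chain acyl-CoA dehydrogenase, read 9.03, 9.11 and 9.09 with PBS and 9.54, 9.73 and 9.58 with PJ34. It was 1.45-fold higher (1.30 to 1.62, adjusted p = 0.00768 from limma) and passed in all 6 fits that left out 1 array. None of the others passed. At an unadjusted p under 0.05 from limma 2 were higher, Acadl included, and 4 lower (8.95% and 7.74% of all probe sets tested). The median difference of the list was 0.03. With an intensity trend and robust eBayes 2 were higher, Acadl and Cpt1a (difference 0.27), which brings fatty acids into mitochondria, and 3 were lower, Echs1 (-0.33), Eci1 (-0.25) and Decr1 (-0.26), enzymes of the breakdown cycle. In that fit 4.31% of all probe sets tested were higher and 3.93% lower. The counts without dim probe sets were also 2 and 3 (7.02% and 6.12% of the probe sets in that fit), and by the methods' t-test none passed.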
